A study of Gallus gallus with 4 samples.

Results

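The tumour necrosis factor (TNF) ligands, their receptors and the TRAF adaptors were examined in the surface epithelium of the chicken bursa. So were the TNFAIP genes, of TNF-induced proteins and relatives of these, and the transcription factor NF-kB with its inhibitors. Genes were taken by symbol from the platform's probe-to-gene table: every TNFRSF, TNFSF, TNFAIP or TRAF gene with a number, and CD40, FAS, NFKB1, NFKB2, NFKBIA, NFKBIE, NFKBIZ, REL and RELA. This gave 46 genes of the 13009 named on the array, measured by 85 probe sets, and each gene was represented by its brightest probe set over the 4 arrays. Of the 46, 39 were bright enough to be tested and 7 were not.

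Chicken B cells mature in the bursa of Fabricius, a pouch that opens into the cloaca. The study compared 2 samples of follicle-associated epithelium (FAE), which covers the lymphoid follicles, with 2 samples of interfollicular epithelium (IFE), which lies between them. All 4 came from healthy, specific-pathogen-free chicks of Line-M at 19 days of age, with no transgene or drug treatment named in the labels, and the epithelium was picked with a 29G needle after ink staining. Loosening in 40 mM EDTA and 25 mM Hepes lasted 5 min at room temperature for FAE and 30 min at 37 °C for IFE, so for every gene below the handling and the epithelium cannot be told apart. For the IFE samples the source name gives FAE, whereas title and cell type give IFE, and the latter were followed. No label says that samples within a group are from different birds, so p-values reflect only how these samples vary, and that variation may be technical. In these bulk samples, fewer cells of a type and less RNA per cell cannot be told apart.

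TNF family ligands are mostly membrane-anchored trimers that cluster their receptors on neighbouring cells. The receptors recruit TRAF adaptors or death-domain proteins, and many of them free NF-kB from its inhibitors, either by the canonical route through NFKBIA or by the slower route that processes NFKB2 and is restrained by TRAF3. In mammals, BAFF (TNFSF13B) keeps B cells alive, and the RANK receptor (TNFRSF11A) with its ligand RANKL (TNFSF11) induces the M cells of gut follicle epithelium, the cell type to which bursal FAE is often likened.

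Levels are array signals, with all arrays brought to the same trimmed mean. Background was taken per array as the 95th percentile of 744 unnamed probe sets without the chicken prefix, and it was 0.671 and 0.683 on FAE replicates 1 and 2 and 0.722 and 1.02 on IFE replicates 1 and 2. IFE replicate 2 also stood apart in RNA quality, with a beta-actin 3'/5' ratio of 31.2 against 14.4 to 18.6 elsewhere. Folds come from log2 signals, and a gene is called where limma's p, adjusted by Benjamini-Hochberg over all 23063 tested probe sets, is under 0.05. Where an array is left out, its group keeps 1 sample, which is assumed to vary like the other group, and the spread comes from the other group's pair alone. The FAE pair differed by a median of 0.25 on the log2 scale and the IFE pair by 0.48. Calls gained or lost in this way therefore carry a changed error estimate, and the log2 fold changes are given beside them.

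Of the 39 tested genes, 9 were higher in FAE, 1 was lower and 29 did not pass. The 9 were the ligand TNFSF13B, the receptors TNFRSF8, TNFRSF19, TNFRSF18 and TNFRSF11A, the adaptor TRAF5, the TRAF3-binding protein gene TRAF3IP3, and TNFAIP8L1 and TNFAIP2. The single lower gene was NFKBIZ, an inhibitor-like protein of the nucleus. Calls in either direction made up 25.6% of the 39, against a background of 10.3% of 10388 named genes and 8.23% of all tested probe sets. Higher calls made up 23.1%, against 6.31% of named genes and 5.22% of probe sets, and the background of lower calls was 3.96% and 3.01%. Of the 9 higher genes, TRAF3IP3 passed the filter through its FAE signal, so its direction adds no support to that share. In 27 of the 39 (69.2%) the groups did not overlap, with FAE above IFE in 18 and below it in 9. The background was 59.2% of named genes (26.7% above and 32.5% below) and 55.9% of probe sets (25.4% above and 30.5% below), so separation of the groups was common on these arrays. The median log2 fold change, FAE over IFE, was 0.27 for the 39 genes and -0.07 for all tested probe sets.

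**Figure D1:**
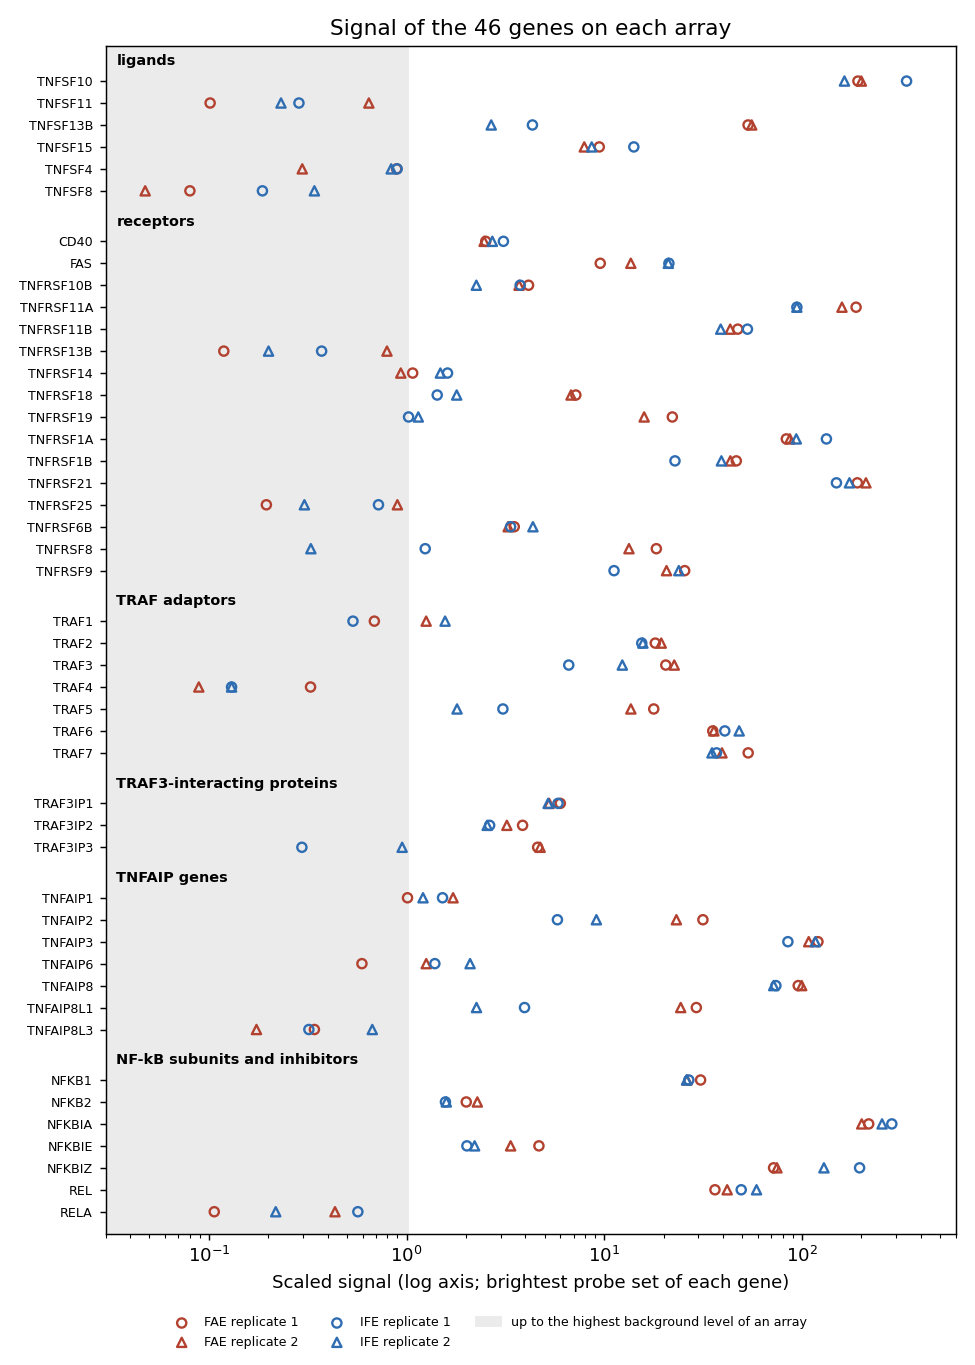
Scaled signal (log axis) of the brightest probe set of each of the 46 genes on each array, FAE in red and IFE in blue, with replicate 1 as circles and replicate 2 as triangles. The grey band reaches to 1.02, the highest background level of an array; TNFSF13B, TNFRSF8, TNFRSF18, TNFRSF19, TRAF5 and TNFAIP8L1 show FAE points far to the right of the IFE points, while TNFSF8, TNFSF11, RELA and TRAF4 lie inside the band on every array.

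Among the ligands, TNFSF13B stood out. Its FAE signals were 53.5 and 55.8, against 4.34 and 2.68 in IFE. The FAE samples lay close together and far above both IFE samples. The means were 54.7 ± 1.64 (SD, n = 2) in FAE and 3.51 ± 1.17 in IFE, a 16-fold difference (log2 fold change 4.0, SE 0.31, adjusted p = 0.00223 by limma). The next brightest TNFSF13B probe set had a log2 fold change of 3.08 and was also called (adjusted p = 0.0127). It may cross-hybridise with other transcripts, as may the dimmest of the 3, and it read 0.597 on IFE replicate 2, under background. The dimmest gave 4.32 with an adjusted p of 0.0667, and it read 1.21 on IFE replicate 1 and 0.0764, under background, on IFE replicate 2. All 3 probe sets pointed to FAE, but the dimmest passed the filter through its FAE signal, so its direction adds no support. The call of the brightest held without each of the 4 arrays in turn.

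The receptors of BAFF could be followed only in part. TNFRSF13B (TACI), which in mammals binds BAFF, read 0.119 and 0.796 in FAE and 0.372 and 0.200 in IFE. It was above background on 1 array only and was too dim to be tested. No probe set was assigned to the BAFF receptor gene TNFRSF13C or to TNFRSF17, so neither is among the 46 genes.

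TNFSF10 (TRAIL), a ligand that can trigger apoptosis, did not separate the epithelia. Its signals were 192 and 200.3 in FAE and 339 and 164 in IFE. The IFE samples lay on either side of the FAE samples, with a log2 fold change of -0.27 (95% interval -1.04 to 0.51, adjusted p = 0.671). Of its 5 tested probe sets, 4 had a log2 fold change below 0 and 1 above, and none was called. Against IFE replicate 1 alone, with the spread of the FAE pair, its brightest probe set had -0.79 (adjusted p = 0.0114, range over all settings 0.0114 to 0.947), and against IFE replicate 2 alone 0.26. TNFRSF10B, which in chicken encodes TVB, the entry receptor of several avian leukosis virus subgroups, and in mammals is a TRAIL receptor, had 4.14 and 3.71 in FAE and 3.76 and 2.26 in IFE. These groups overlapped as well (log2 fold change 0.43, adjusted p = 0.495).

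The other ligands gave no call. TNFSF15, in mammals the ligand of TNFRSF25, had a log2 fold change of -0.35 (95% interval -1.11 to 0.41) with overlapping groups. TNFSF4, in mammals the ligand of the costimulatory receptor OX40 of T cells, was above background on 1 array of each group, with signals from 0.297 to 0.897. TNFSF8, which in mammals binds TNFRSF8, and TNFSF11 were under background on every array. TNFSF8 had 0.0801 and 0.0476 in FAE and 0.187 and 0.342 in IFE, and TNFSF11 had 0.101 and 0.645 in FAE and 0.286 and 0.232 in IFE. In the assembly's gene table TNFSF15 and TNFSF8 are next to each other on chromosome 17.

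Of 16 receptors, 14 were tested and 4 (28.6%) were called higher in FAE, against 6.31% of named genes. None was called lower, where the background was 3.96%. TNFRSF8 (CD30), a receptor of activated lymphocytes, was higher in FAE. Its signals were 18.4 and 13.4 in FAE and 1.24 and 0.328 in IFE. The value of IFE replicate 2 lay under background, so the 24.5-fold difference (log2 fold change 4.62, SE 0.60, adjusted p = 0.00690) may be overstated. Without that array the log2 fold change was 3.66, where that of TNFRSF19 was 4.20, and without IFE replicate 1 it was 5.58. The call held without each array but was lost without the intensity trend (adjusted p = 0.0513; range over all settings 5.18e-05 to 0.0513). Its ligand gene TNFSF8 was the one under background throughout.

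TNFRSF19 (TROY), in mouse a receptor linked to Wnt signalling and to intestinal stem cells, was only just above background in IFE. FAE had 22.1 and 15.9, IFE had 1.02 and 1.15, and the groups did not overlap. The difference was 17.3-fold (log2 fold change 4.12, SE 0.30, adjusted p = 0.00208), with means of 19.0 ± 4.38 (SD, n = 2) and 1.09 ± 0.0867. Both other tested probe sets of the gene were under background on both IFE arrays and were not called, with FAE at least 1.08-fold and at least 1.40-fold above that background. They passed the filter through their FAE signal, so their direction adds no support. Its call held under every setting tried, with a log2 fold change between 2.60 and 4.35.

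TNFRSF18 (GITR), in mammals a receptor of regulatory and activated T cells, read 7.19 and 6.80 in FAE and 1.43 and 1.79 in IFE. The FAE samples were close together and above both IFE samples. This was a 4.37-fold difference (log2 fold change 2.13, SE 0.29, adjusted p = 0.00791). Of its other probe sets, one was called at 2.53 (adjusted p = 0.0453) and the other gave 1.44 without passing (adjusted p = 0.0730). The one called at 2.53 may cross-hybridise, and it read 0.401 on IFE replicate 2, under background. Leaving out FAE replicate 1 (adjusted p = 0.113) or FAE replicate 2 (0.0710) ended the call of the brightest, while the log2 fold change stayed at 2.09 and 2.17. Over all settings the adjusted p lay between 0.000832 and 0.113.

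TNFRSF11A (RANK) showed a smaller difference. Its signals were 188 and 159.8 in FAE and 94.5 and 94.5 in IFE. Both FAE samples were above both IFE samples, by 1.84-fold on average (log2 fold change 0.88, SE 0.19, adjusted p = 0.0401). The other TNFRSF11A probe set was under background on all arrays and was too dim to be tested. The ligand gene TNFSF11 was also under background on all arrays, as given above. TNFRSF11B (osteoprotegerin), the soluble decoy that binds RANKL, had 47.5 and 43.4 in FAE and 53.1 and 38.9 in IFE. Those groups overlapped, with a log2 fold change of -0.0014 (95% interval -0.58 to 0.58). Without FAE replicate 1 or 2 the log2 fold change of TNFRSF11A was 0.76 and 0.996, and its call was lost (adjusted p = 0.535 and 0.232). It was also lost without the filter on dim probe sets (0.104) and without the intensity trend (0.176), within a range of 0.00976 to 0.535 over all settings.

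The receptors of TNF itself did not pass on their brightest probe sets. TNFRSF1A, the broadly expressed receptor with a death domain, had 83.6 and 87.1 in FAE and 133 and 93.9 in IFE. Its groups did not overlap, but IFE replicate 1 set most of the distance (log2 fold change -0.39, adjusted p = 0.366). TNFRSF1B, which is restricted mainly to leukocytes and endothelium in mammals, had 46.7 and 43.5 in FAE and 22.8 and 39.2 in IFE (log2 fold change 0.59, adjusted p = 0.294). All 4 tested probe sets of TNFRSF1B had a log2 fold change above 0, from 0.59 to 5.48. The second brightest, which may cross-hybridise, was called at 1.22 (adjusted p = 0.0301). The value of 5.48 came from a probe set that read 0.0188 on IFE replicate 1 and 11.8 on IFE replicate 2, and it had an SE of 2.51. With IFE replicate 1 as the only IFE sample, and the spread taken from the FAE pair, the brightest probe set of TNFRSF1B had a log2 fold change of 0.98 (adjusted p = 0.00759, range over all settings 0.00759 to 0.833). With IFE replicate 2 as the only one it had 0.20. TNFRSF1A had -0.64 against IFE replicate 1 alone (adjusted p = 0.0286, range 0.0286 to 0.870) and -0.14 against IFE replicate 2 alone.

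CD40, through which T cells license B cells and antigen-presenting cells, was low and even across the samples. FAE had 2.52 and 2.47, IFE had 3.09 and 2.72, and all were above background. FAE was thus slightly under IFE (log2 fold change -0.22, 95% interval -0.90 to 0.47, adjusted p = 0.697). FAS, the death receptor of FASLG, had 9.56 and 13.6 in FAE and 21.3 and 21.1 in IFE. Here the groups did not overlap, and the log2 fold change of -0.89 (SE 0.28) missed the threshold with an adjusted p of 0.105. A second FAS probe set gave -0.54. Without IFE replicate 1 or 2 the log2 fold change of FAS stayed at -0.89 and -0.90, and with the spread of the FAE pair alone the adjusted p was 0.0359 and 0.0446. It reached 0.767 under other settings.

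The remaining receptors did not pass. TNFRSF9, a costimulatory receptor of activated lymphocytes, had 25.6 and 20.7 in FAE and 11.2 and 23.9 in IFE, with overlapping groups (log2 fold change 0.49). Against IFE replicate 1 alone, with the spread of the FAE pair, it had 1.04 (adjusted p = 0.0127, range over all settings 0.0127 to 0.929), and against IFE replicate 2 alone -0.05. TNFRSF21, a death-domain receptor known as DR6, had 191 and 211 in FAE and 149.8 and 174 in IFE, without overlap (log2 fold change 0.31, adjusted p = 0.364). Of the settings tried, quantile normalization alone gave a call, at 0.62 (adjusted p = 0.0402, range 0.0402 to 0.853). TNFRSF14 and the decoy receptor gene TNFRSF6B had log2 fold changes of -0.63 and -0.18, and neither passed. TNFRSF25 was above background on FAE replicate 2 alone, at 0.899.

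Of the 16 receptors, 5 lie on chromosome 21 of the assembly bGalGal1.mat.broiler.GRCg7b: TNFRSF18, TNFRSF25, TNFRSF8, TNFRSF9 and TNFRSF1B. TNFRSF8 and TNFRSF1B have no protein-coding gene between them there. Their log2 fold changes were 4.62 and 0.59.

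**Figure D2:**
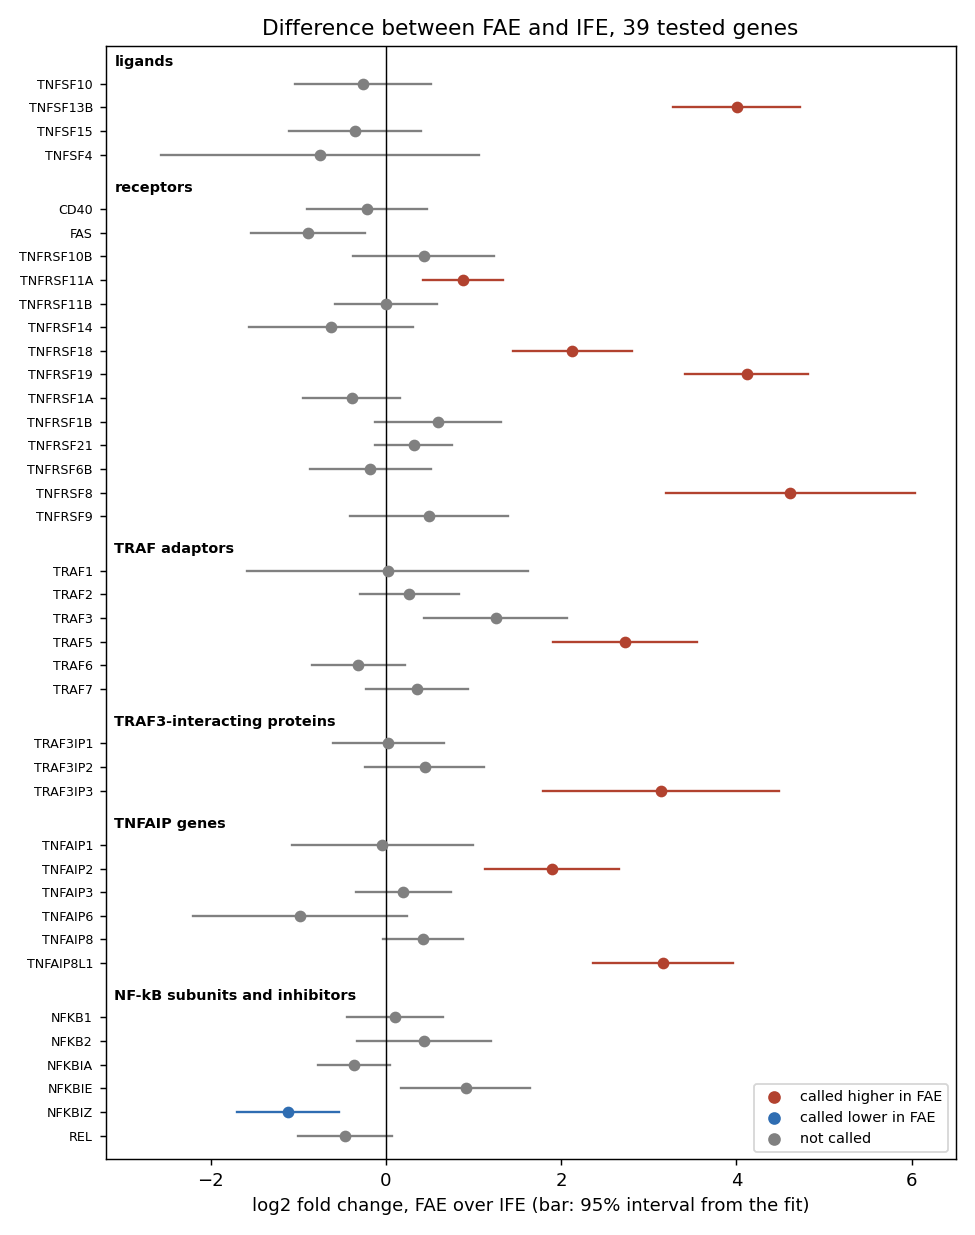
Log2 fold change, FAE over IFE, of the 39 tested genes by role, as points with 95% intervals from the fit; red marks genes called higher in FAE, blue the gene called lower and grey those not called. The 9 red points lie between 0.88 and 4.62, and NFKBIZ is at -1.12.

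TRAF proteins carry the signal from the receptors to NF-kB and to the MAP kinases. Of 7, 6 were tested and 1 (16.7%), TRAF5, was higher in FAE, against 6.31% of named genes. TRAF5, which in mammals serves CD40, CD27 and other lymphocyte receptors, had 17.8 and 13.7 in FAE and 3.08 and 1.80 in IFE. Every FAE value was above every IFE value, and the difference was 6.63-fold (log2 fold change 2.73, SE 0.35, adjusted p = 0.00659). Its call was lost without FAE replicate 1, where the log2 fold change was 2.54 (adjusted p = 0.0705, range 0.000202 to 0.0705). Its other probe set was too dim to be tested and was above background on IFE replicate 1 alone.

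TRAF3, which in resting B cells holds the noncanonical NF-kB route in check, had a 2.38-fold higher mean in FAE that did not pass. The brightest probe set read 20.5 and 22.6 in FAE and 6.62 and 12.4 in IFE. The FAE samples agreed closely while the IFE samples differed (log2 fold change 1.25, SE 0.34, adjusted p = 0.0750). A second probe set with closer IFE values, 5.60 and 6.78, was called at 1.85 (adjusted p = 0.00887), and the dimmest gave 0.69 (adjusted p = 0.238). TRAF3 was called on the mean of its probe sets (1.26, adjusted p = 0.0284) and with the replicate number as a block (0.0382). Without IFE replicate 1 or 2, which removes the difference between the IFE samples and leaves the spread of the FAE pair, the log2 fold change was 0.80 (adjusted p = 0.0178) and 1.70 (0.00114). Without FAE replicate 1 or 2 it was 1.32 and 1.18, with no call, and over all settings the adjusted p lay between 0.00114 and 0.432.

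TRAF2, the adaptor of TNF receptor complexes, had 18.1 and 19.5 in FAE and 15.5 and 15.7 in IFE. The groups did not overlap, but the difference was small (log2 fold change 0.27, 95% interval -0.30 to 0.83). TRAF6, which serves Toll-like and interleukin-1 receptors as well as RANK and CD40, had 35.5 and 35.9 in FAE and 40.8 and 48.2 in IFE (log2 fold change -0.31, adjusted p = 0.448). A dimmer TRAF6 probe set was called lower, at -1.52 (adjusted p = 0.0401), with 1.93 and 3.29 in FAE against 7.15 and 7.32 in IFE, and the other gave -0.22. TRAF7 and TRAF1 were not called, at 0.35 and 0.02, and TRAF4 was under background on all arrays.

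TRAF3IP3, an adaptor found mainly in lymphocytes in mammals, was at least 5.45-fold higher in FAE (adjusted p = 0.0212). FAE had 4.61 and 4.74, and IFE had 0.296 and 0.950, both under background, and the fold is therefore given against the background level. The gene passed the filter through its FAE signal, so its direction followed from that. With FAE replicate 1 left out the log2 fold change was 3.16, with FAE replicate 2 left out 3.12, and with no intensity trend 3.14, but the call ended (adjusted p = 0.151, 0.111 and 0.0801, within a range of 0.000293 to 0.151). The other TRAF3-binding genes did not pass. TRAF3IP2 (ACT1), the adaptor of interleukin-17 receptors, had 3.87 and 3.22 in FAE and 2.63 and 2.56 in IFE (log2 fold change 0.44). TRAF3IP1, a component of the transport machinery of cilia, was at 0.03 with overlapping groups.

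Of 7 TNFAIP genes, 6 were tested, and TNFAIP8L1 and TNFAIP2 (33.3%) were higher in FAE, against 6.31% of named genes. TNFAIP8L1 (TIPE1), of a family of lipid-binding regulators of cell survival, had 29.3 and 24.4 in FAE and 3.96 and 2.26 in IFE. The samples of the groups lay far apart, 8.94-fold on average (log2 fold change 3.16, SE 0.34, adjusted p = 0.00384). The call held without each array in turn. The only probe set of the gene is one that may cross-hybridise, so no value remained where those were left out. The related TNFAIP8 had 96.0 and 99.9 in FAE and 74.0 and 72.1 in IFE, without overlap (log2 fold change 0.42, adjusted p = 0.246). A second TNFAIP8 probe set gave 1.62 (adjusted p = 0.0577), with 45.3 and 18.7 in IFE. TNFAIP8L3 was under background on all arrays.

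TNFAIP2, which remodels membranes and is a marker of M cells in mouse, had 31.6 and 23.2 in FAE and 5.80 and 9.14 in IFE. Both FAE samples were above both IFE samples, by 3.72-fold (log2 fold change 1.90, SE 0.32, adjusted p = 0.0172). Dropping FAE replicate 1 gave a log2 fold change of 1.67, dropping FAE replicate 2 gave 2.12 and dropping the intensity trend gave 1.90, and the call held in none of these (adjusted p = 0.244, 0.0841 and 0.0803, within a range of 0.000804 to 0.244).

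TNFAIP3 (A20), the ubiquitin-editing enzyme that NF-kB induces and that shuts NF-kB off, differed little. Its signals were 121 and 108 in FAE and 85.1 and 117 in IFE. The groups overlapped, with a log2 fold change of 0.20 (95% interval -0.35 to 0.74, adjusted p = 0.651). TNFAIP6, which binds hyaluronan, had 0.595 and 1.26 in FAE and 1.39 and 2.10 in IFE (log2 fold change -0.98, adjusted p = 0.306). TNFAIP1 had -0.04 with overlapping groups.

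NF-kB itself is a dimer of REL family proteins, held in the cytoplasm by inhibitors of the IkB group. Of the 7 genes, 6 were tested and NFKBIZ alone was called. NFKBIZ (IkB-zeta), a nuclear protein that is rapidly induced by Toll-like and interleukin-1 receptor signals, had 72.0 and 74.9 in FAE and 196 and 129.5 in IFE. Both IFE samples were above both FAE samples, which lay close together, and FAE was 2.17-fold lower (log2 fold change -1.12, SE 0.25, adjusted p = 0.0405). The call was lost with the common median (adjusted p = 0.0893), with quantile normalization (0.0748), without the filter (0.0795) and without the intensity trend (0.157). Leaving out FAE replicate 1 (0.344) or FAE replicate 2 (0.211) ended it too, with log2 fold changes of -1.09 and -1.15, and over all settings the adjusted p lay between 0.00106 and 0.344. Of all named genes 3.96% were called lower in FAE, and of all tested probe sets 3.01%. Early response and heat shock genes were lower in FAE on the same arrays (median log2 fold change -1.44). Of 16 tested, 7 (43.8%) were called lower and none higher. Their summed signal was 1219.8 and 1425 in FAE against 2829.9 and 3161 in IFE, and their part in the NFKBIZ difference was not tested.

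NFKBIA (IkB-alpha), the main cytoplasmic inhibitor and a direct NF-kB target, had 218 and 201 in FAE and 286 and 255 in IFE. FAE was under IFE without overlap, but the log2 fold change of -0.37 (95% interval -0.78 to 0.05) did not pass (adjusted p = 0.263). With quantile normalization it turned to 0.03. NFKBIE (IkB-epsilon), another cytoplasmic inhibitor, had 4.68 and 3.36 in FAE and 2.02 and 2.21 in IFE (log2 fold change 0.91, adjusted p = 0.133). Its second probe set went the other way and was called lower, at least 3.76-fold (adjusted p = 0.0221), with 0.338 and 0.460 in FAE, both under background, and 2.09 and 3.11 in IFE. That second probe set passed the filter through its IFE signal, so its direction adds no support. The values thus settle no direction for NFKBIE.

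The subunit genes were not called. NFKB1, the precursor of p50, had 30.8 and 26.3 in FAE and 26.8 and 26.1 in IFE, with overlapping groups (log2 fold change 0.10, 95% interval -0.45 to 0.65). NFKB2, the precursor processed in the noncanonical route, had 2.01 and 2.28 in FAE and 1.57 and 1.59 in IFE. Both FAE samples were above IFE, but the log2 fold change of 0.44 (95% interval -0.33 to 1.20) did not pass. REL, the subunit most tied to B cells, had 36.4 and 42.0 in FAE and 49.4 and 59.0 in IFE on its brightest probe set (log2 fold change -0.47, adjusted p = 0.273). Against IFE replicate 2 alone, with the spread of the FAE pair, it had -0.60 (adjusted p = 0.0444, range over all settings 0.0444 to 0.879). A second REL probe set had the reverse order, with 15.0 and 19.1 in FAE and 4.96 and 11.1 in IFE (1.19, adjusted p = 0.133). RELA was under background on all arrays, with 0.106 and 0.434 in FAE and 0.567 and 0.218 in IFE on its single probe set.

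**Figure D3:**
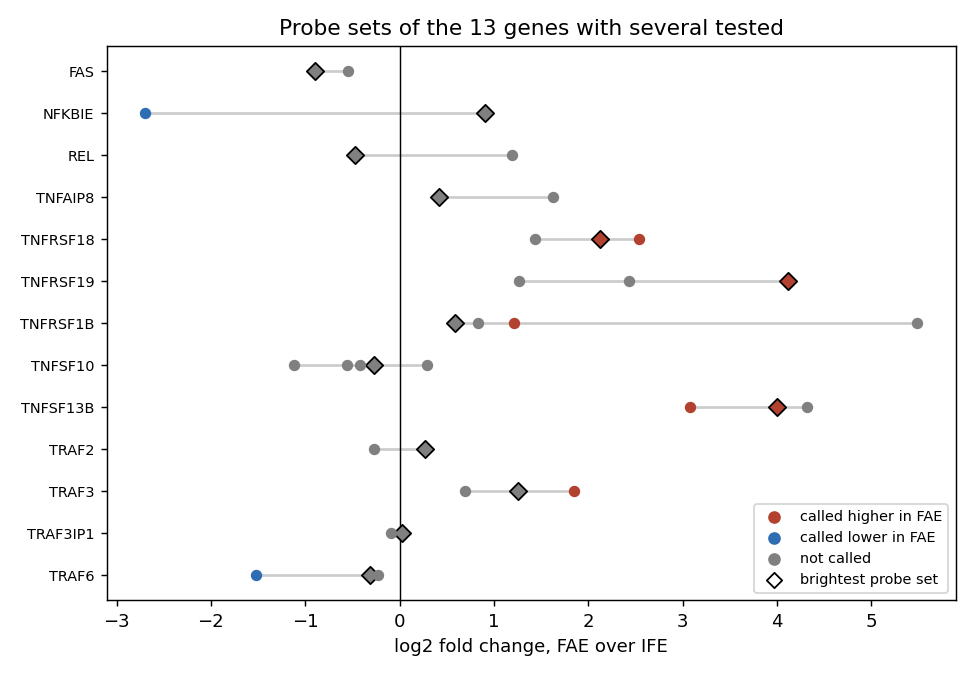
Log2 fold change, FAE over IFE, of each tested probe set of the 13 genes that have several, with the brightest as an outlined diamond and calls in red (higher) and blue (lower). NFKBIE and REL have probe sets on both sides of 0, whereas all probe sets of TNFSF13B, TNFRSF18, TNFRSF19, TNFRSF1B and TRAF3 lie above 0. The dimmest of TNFSF13B and both dimmer ones of TNFRSF19 passed the filter through FAE signal, and the lower one of NFKBIE through IFE signal. The side on which these lie followed from that.

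Probe sets of the same gene did not always agree. Of the 46 genes, 22 had several probe sets and 13 had several that were tested. In 5 of these 13 the probe sets differed in sign: NFKBIE, REL, TNFSF10, TRAF2 and TRAF3IP1. For NFKBIE, the probe set below 0 passed the filter through its IFE signal. In 7 some probe sets were called and others were not, and in none of the 13 were all called.

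**Figure D4:**
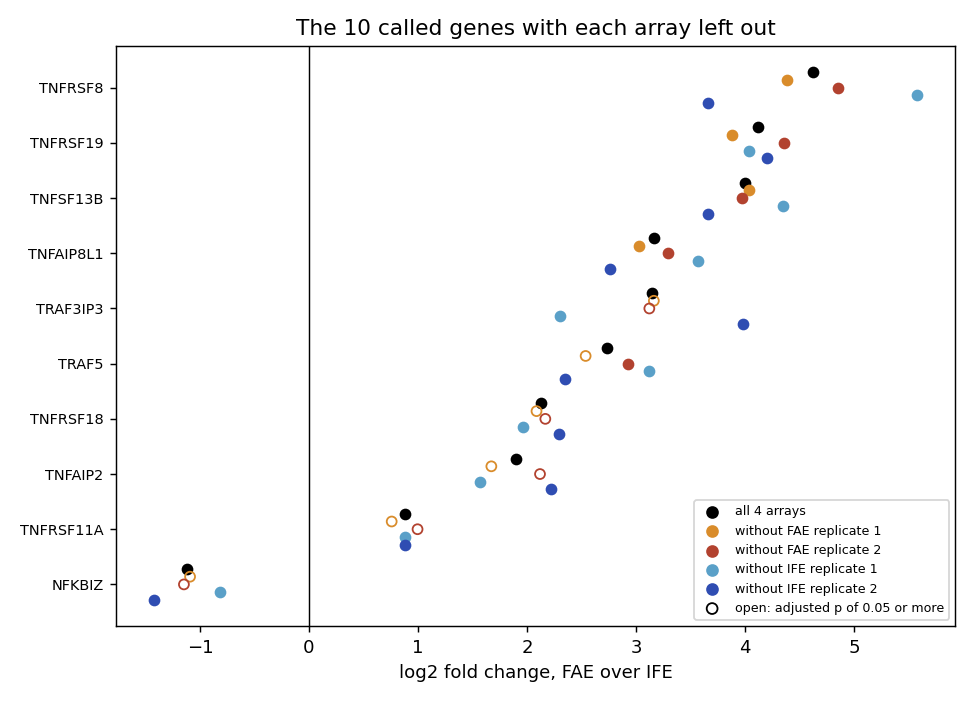
Log2 fold change, FAE over IFE, of the 10 called genes with all 4 arrays (black) and with each array left out; filled points have an adjusted p under 0.05 and open points do not. TNFRSF8, TNFRSF19, TNFSF13B and TNFAIP8L1 are filled in every case. Leaving out an array could not change a sign, since the groups of the 10 genes do not overlap.

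The groups of each of the 10 called genes did not overlap, so leaving out an array could not turn a sign. Some calls were lost. Of the 10, 4 remained when FAE replicate 1 was left out (TNFSF13B, TNFRSF8, TNFRSF19 and TNFAIP8L1), and these and TRAF5 when FAE replicate 2 was. In both cases the spread came from the IFE pair. All 10 remained without either IFE replicate, with the spread of the FAE pair. Without either IFE replicate, more of the genes were called in each direction than in the main setting. Calls over all probe sets rose too, in each direction. A rise in calls was therefore not particular to these genes.

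Other genes of the pathway, outside the 46, were listed for comparison. Of 55 adaptors, kinases and regulators of NF-kB listed, 36 were on the array under a matching symbol and 35 were tested. None was called higher and 1 was called lower (2.86%, where the background was 10.3% of named genes), with a median log2 fold change of 0.08 beside -0.07 for all tested probe sets, and 3 passed an unadjusted p of 0.05. The called gene was RIPK3, in mammals a kinase of necroptosis, with 13.6 and 15.6 in FAE and 33.5 and 36.9 in IFE (log2 fold change -1.27, adjusted p = 0.0243). Kinases of the canonical and noncanonical routes did not pass: CHUK was at 0.58, IKBKB at -0.11 and MAP3K14, the NF-kB-inducing kinase, at -0.04. Of 17 other symbols of TNF family or related genes, 8 matched, 3 were tested and none was called by limma, also at an unadjusted p of 0.05. Among the unmatched, CD30 and DCR3 are other names of TNFRSF8 and TNFRSF6B, which are among the 46. LITAF stood in both lists. CD40LG, the CD40 ligand, had 1.08 and 0.934 in FAE and 2.02 and 1.33 in IFE (log2 fold change -0.71, adjusted p = 0.359).

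Genes known as NF-kB targets in mammals were split. Of 45 listed, 34 matched and 30 were tested, with 7 higher, 4 lower (36.7% called, against the same background) and a median of 0.02. Higher in FAE were IL1B, IL8L1, IRF4, VCAM1, CD83, PLAU and CD44, and lower were IL8L2, IRF1, BCL2 and IER3. The chemokine genes IL8L1 and IL8L2 went opposite ways. IL8L1 had 5.11 and 4.50 in FAE and under-background signals of 0.583 and 0.720 in IFE, at least 5.60-fold higher (adjusted p = 0.00503). It passed the filter through its FAE signal, so its direction followed from that. IL8L2 had 19.3 and 24.3 in FAE and 77.2 and 124 in IFE (log2 fold change -2.18, adjusted p = 0.00785). Several of these targets, such as CD83, are themselves markers of macrophages or lymphocytes.

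**Figure D5:**
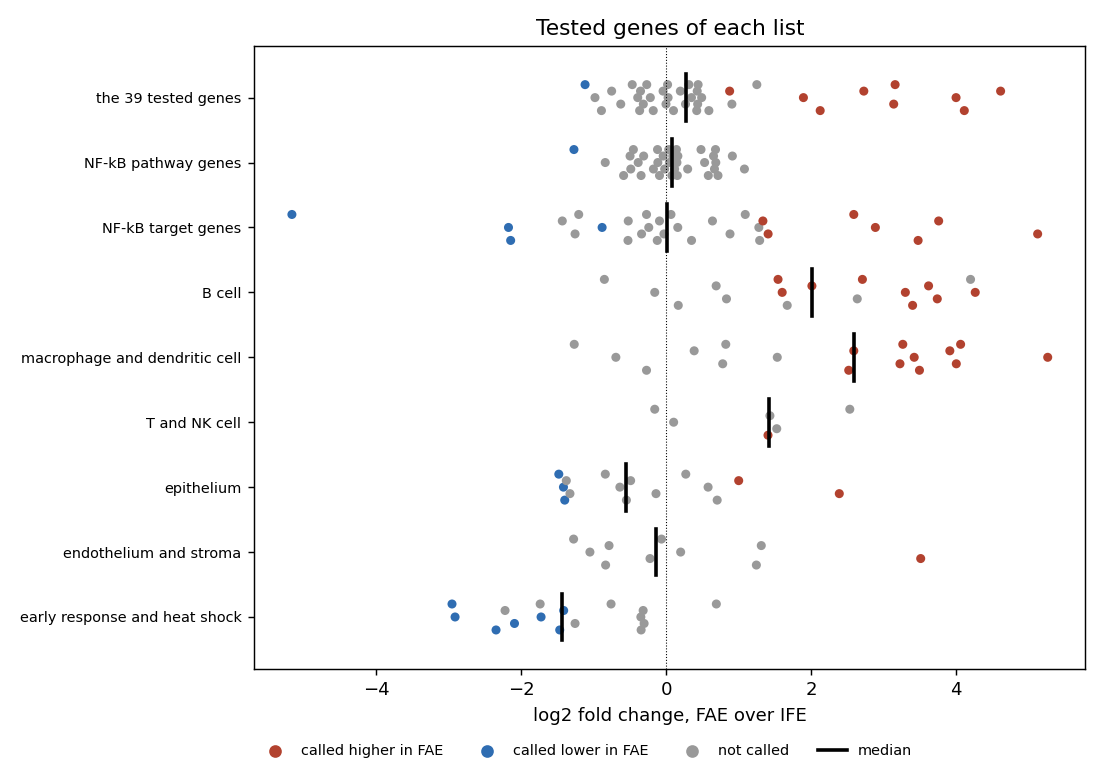
Log2 fold change, FAE over IFE, of the tested genes of each list, with the median as a black bar and calls in red (higher in FAE) and blue (lower). The medians are 0.27 for the 39 genes, 0.08 for NF-kB pathway genes, 2.01 for B cell and 2.59 for macrophage and dendritic cell markers, and -1.44 for early response and heat shock genes.

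Markers of several cell types were compared between the same samples. The background of calls was 6.31% of named genes higher, 3.96% lower and 10.3% in either direction. The median log2 fold change of all tested probe sets was -0.07. Of 20 B cell markers, 18 matched and 17 were tested, with 9 higher (52.9%), none lower and a median of 2.01. Their summed signal was 1085 and 1242 in FAE against 592 and 679.5 in IFE. The B cell receptor component CD79B had 15.2 and 20.9 in FAE and 1.59 and 2.06 in IFE. PAX5 was not called (-0.85), and CXCR5 was under background on all arrays. Of 19 macrophage and dendritic cell markers, 17 were tested, with 10 higher (58.8%) and none lower (median 2.59). Their summed signal was 1612 and 1543 in FAE and 589 and 520.5 in IFE, and CCR7 was under background throughout. T and NK cell markers had 1 call, CD3E, among 6 tested (16.7%, median 1.42). Their summed signals in FAE (61.0 and 52.3) were above those in IFE (29.9 and 22.7), and LCK and TRAT1 were under background. Endothelial and stromal markers had 1 call, CDH5, among 10 tested (median -0.14). Their summed signal was 25.2 and 36.3 in FAE against 18.8 and 20.8 in IFE, and TEK, LUM and ACTA2 were under background.

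Each of the 15 matched epithelial markers was above background on at least 1 array. All 15 were tested, and 2 were higher and 3 were lower in FAE (median -0.55). These calls made up 33.3%, against a background of 10.3% of named genes. The summed signal of the 15 was 1414 and 1728 in FAE and 2309 and 2361 in IFE. EPCAM, a general epithelial marker, had 315 and 412 in FAE and 501 and 554 in IFE and was not called (adjusted p = 0.134). TNFSF13B, TNFRSF8, TNFRSF18, TRAF5 and TRAF3IP3 are expressed by lymphocytes or myeloid cells in other settings. The part of the leukocyte markers in their differences was not tested. Nor was it tested for the other called genes, TNFRSF11A and TNFAIP2 among them. CD40, REL, TNFRSF9, TNFRSF1B and TRAF3, also tied to leukocytes above, were not called on their brightest probe sets. Their log2 fold changes were -0.22, -0.47, 0.49, 0.59 and 1.25 in that order. The second brightest probe sets of TNFRSF1B and TRAF3 were called higher. The part of the leukocyte markers in these values was not tested either.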

How the data were processed

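RNA of 4 samples was amplified by a 2-cycle protocol, labelled with biotin and hybridised to single-colour chicken arrays, per the labels' protocols. The deposited values are linear intensities, and per the submitters' processing notes the authors used MAS5. The MAS5 version is not stated in the labels. Medians of the deposited columns are 1 and their minima 0.01, and the number of arrays limits the precision.

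The 96 array controls were left out, leaving 38439 probe sets, of which 27168 named 1 gene, 177 several and 11094 none. Before that, all arrays were brought to the same mean after 2% trimming, controls included. The scaled signals were put on the log2 scale with no offset. Probe sets under the 40th percentile of mean signal (0.695) were not tested, which kept 23063. The fit of FAE against IFE used lmFit and trended eBayes of limma 3.58.1 under R 4.3.3, two-sided, with Benjamini-Hochberg adjustment over all tested probe sets and a threshold of 0.05. The fit was tested on simulated data. A gene under background on both arrays of 1 group has its fold as a lower bound against the background level.

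The genes, lists and rules were chosen with earlier results of these data known. Values on each array are given for some of the 46 genes. Most of these were called, differed 2-fold without overlap, or stood in a fixed list. That list held central ligands, receptors, adaptors and NF-kB genes, and its entries TNFSF13, TNFRSF13C and TNFRSF17 were not among the 46. Values on each array are also given for TNFSF8, TNFRSF10B, TNFRSF9, TNFRSF21, TNFAIP6, TNFAIP8 and TRAF3IP2, which met none of these rules. The rest are given by range, log2 fold change or their place against background. Pathway genes were to be named up to 10 per list by adjusted p, and all called ones are named. CHUK, IKBKB, MAP3K14, CD40LG and the marker genes were chosen after their values were seen. All 46 symbols matched RefSeq genes of bGalGal1.mat.broiler.GRCg7b, a table used for names, chromosome and neighbours only. Alternatives were other scalings, no filter, an offset, no trend, other treatments of probe sets, each sample left out and a replicate block. A planned search of promoters for motifs was not run, since no sequences were used here.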

Additional observations from a re-analysis of the deposited data

How the results depend on the processing

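With each sample left out, the 46 genes had between 4 and 12 calls higher in FAE and between 0 and 4 lower. All tested probe sets had between 202 and 3619 higher and between 46 and 2538 lower, and the pathway lists between 2 and 20 higher and between 2 and 10 lower, against 7 and 5 in the main setting. The group that lost a sample then added nothing to the spread, which came from the other pair. Without the intensity trend, 5 of the genes were called higher and 0 lower by limma, with 449 and 102 for all probe sets and 4 and 1 for the pathway lists. The 1 lower call, NFKBIZ, was lost (0 lower) also with the common median, without the filter, with quantile normalization, and when cross-hybridising probe sets were dropped, where that gene had no value left. The common median left 3 lower calls in the pathway lists and moved the median of all log2 fold changes by 0.13. Adjusting over 1 probe set per named gene gave 719 higher calls, since fewer probe sets entered.

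The replicate numbers come from titles that name no shared bird or day, and the deviations of same-numbered samples correlated at 0.02, so they were not taken as pairs. With the replicate block, 10 genes were called higher and 1 lower, with TRAF3 added, and 1540 higher and 1083 lower over all probe sets.

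Among genes not called, signs turned in 27 cases. On the mean of all probe sets these were NFKBIE (-0.89), REL (0.36), TRAF2 (-0.0019) and TRAF3IP1 (-0.033). With quantile normalization they were NFKBIA (0.032), TNFAIP1 (0.073), TNFRSF11B (0.020), TNFSF10 (0.052) and TRAF3IP1 (-0.13), with the common median TNFAIP1 (0.087) and TNFRSF11B (0.13), and with the offset TRAF1 (-0.019). With each sample left out, log2 fold changes spanned 0 for NFKB1 (-0.012 to 0.22), TNFAIP1 (-0.42 to 0.34), TNFAIP3 (-0.034 to 0.43), TNFRSF11B (-0.23 to 0.22), TNFRSF6B (-0.37 to 0.011), TNFRSF9 (-0.054 to 1.04), TNFSF10 (-0.79 to 0.26), TNFSF15 (-0.71 to 0.0011), TNFSF4 (-1.54 to 0.042), TRAF1 (-0.75 to 0.79) and TRAF3IP1 (-0.066 to 0.12). The cause was not tested. None of the 10 calls turned in sign under the alternatives that gave a value. With a sample left out none could, since the groups of these genes did not overlap. Signals near background, highest on IFE replicate 2, limit the genes whose IFE signal is low.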
